A study of Mus musculus with 12 samples.

Results

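The genes of the platelet-derived growth factor (PDGF) family were examined in aortic tissue: the 4 ligand genes Pdgfa, Pdgfb, Pdgfc and Pdgfd and the 2 receptor genes Pdgfra and Pdgfrb. Members were all probes whose gene name in the array files was one of these 6 symbols. They occupied 8 probe positions, of which 7 passed the filter on dim probes, and all 6 genes were among the 22761 genes tested. Gene expression was measured on 12 Agilent 1-colour microarrays, 3 per group, in the aortas of male mice of mixed 129S5/SvEvBrd, C57BL6 and SJL background. All 4 groups carried the floxed Socs3 allele in homozygous form. The smSocs3-KO groups also carried Cre recombinase driven by the smooth muscle SM22 promoter, and their littermates without Cre were the wild type (WT) groups. Either genotype was sampled before challenge or at day 3 of a combined challenge by osmotic minipump, a model of aortic dissection. The challenge joined angiotensin II (AngII, 1000 ng/kg/min), a pressor peptide, with β-aminopropionitrile (BAPN, 150 mg/kg/day), an inhibitor of collagen and elastin cross-linking. The comparisons ask how the challenge and the genotype, alone and together, bear on expression. None of the 4 groups had a vehicle pump or a single drug, so the pump, its implantation, AngII and BAPN cannot be told apart. A challenge response below covers them all. The labels give neither the age of the mice nor whether each array came from a separate mouse, so p-values measure the spread between these arrays only.

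PDGFs are secreted dimers that act on a pair of receptor tyrosine kinases. The α receptor, encoded by Pdgfra, binds dimers of the A, B and C chains and marks fibroblasts and other mesenchymal cells, and the β receptor, encoded by Pdgfrb, binds B and D chains and is carried by smooth muscle cells and pericytes. The A and B chains are cut inside the cell by furin-type proteases before release. The C and D chains leave the cell in a latent form whose CUB domain has to be removed by plasminogen activators or related proteases. In the arterial wall the B chain from endothelial cells and platelets is known to recruit pericytes and smooth muscle cells.

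The probes decide which stretch of each transcript was measured, so the first 30 of their 60 bases are given, 5′ to 3′ as in the array files, with positions on mouse build mm9. The Pdgfa probes lie on chr5:139452934-139452993 and chr5:139452925-139452984, minus strand, and the second starts 9 bases downstream of the first, so that they share 51 bases (in capitals as far as printed). The Pdgfb probes lie on chr15:79826376-79826435 and chr15:79827438-79827497, minus strand, and share no position. The Pdgfc probe lies on chr3:81017572-81017631, the Pdgfd probe on chr9:6376926-6376985 and the Pdgfra probe on chr5:75593888-75593947, all on the plus strand. Their place in exons was not analysed here.
Pdgfa, first probe: actgtagcaCTCAGAGAGACAGTGAGAAAG
Pdgfa, second probe: CTCAGAGAGACAGTGAGAAAGcttccttgt
Pdgfb, bright probe: gttccttctgcttccttcagtttgtaaagt
Pdgfb, dim probe: actccaggctgcaggcttctcttgactcca
Pdgfc: aaatatggagccattgctaacctacccctt
Pdgfd: gaaggggcaaagctaagaatatggctcttg
Pdgfra: tgtatatatctgttgctatgtagacttgga

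A level below is the log2 signal of a gene relative to the 75th percentile of its array, and a difference is between group means of such levels. A gene was called at a Benjamini-Hochberg adjusted p under 0.05 in the limma fit over all tested genes. Levels of different genes came from different probes and are not set against each other. The percentage of spots well above background was 55.4% to 61.2% per array, and no spot was saturated. The 75th percentile of log2 signal was lowest, at 7.48, on smSocs3-KO replicate 1 before challenge. On the other arrays it was 7.97 to 8.79. The Socs3 level did not separate the genotypes in the way the labels name them: before challenge it was 0.30, 0.32 and 0.75 on the WT arrays and 0.24, 1.14 and 1.46 on those labelled smSocs3-KO, and at day 3 it was 2.21, 2.30 and 0.64 against 3.31, 2.28 and 4.13. The genotype groups are therefore given as labelled. All 6 WT arrays and smSocs3-KO replicate 1 before challenge were on one slide and the other 5 smSocs3-KO arrays on another, so that at day 3 slide and genotype cannot be told apart. WT day 3 replicate 4 stood apart from its group in its smooth muscle and macrophage markers, and the values of Pdgfc, Plau, Egr2 and Gmnn and the counts of pathway genes called are also given without it. That array was singled out from these same data. Without it 15.9% of all genes were called in the WT response and 8.43% in the smSocs3-KO response, beside 4.68% and 2.45% with it. A call made without it is therefore no added support. In fits with slide as a block, the slide effect is estimated from smSocs3-KO replicate 1 against replicates 3 and 4 before challenge alone. Their challenge responses are therefore the same as without smSocs3-KO replicate 1 before challenge. Their genotype difference before challenge sets that single array against WT.

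In WT aortas 1 of the 6 members, Pdgfc, was called and was higher at day 3 of BAPN + AngII challenge than before it, against 4.68% of all genes called in that comparison. In smSocs3-KO aortas no member was called, against 2.45% of all genes. Between genotypes no member was called before challenge, against 0.0264% of all genes, nor at day 3, against 1.11%. No member had a called interaction between genotype and challenge, a comparison in which 0 genes of the array were called. At an unadjusted p under 0.05 the limma fit had 4 members in the WT response (26.6% of all genes), 2 in the smSocs3-KO response (23.8%), none before challenge (4.4%), 2 at day 3 (16.2%) and none in the interaction (5.33%). The arrays of the compared groups did not overlap for 4 members in the WT response (35.3% of all genes), 2 in the smSocs3-KO response (28.1%), 2 before challenge (11.1%) and 2 at day 3 (20.5%). With 6 members, these shares cannot be placed firmly above or below those of all genes. The median difference of the members was 0.22 in the WT response and 0.05 in the smSocs3-KO response, beside -0.02 and -0.06 over all genes tested.

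**Figure D1:**
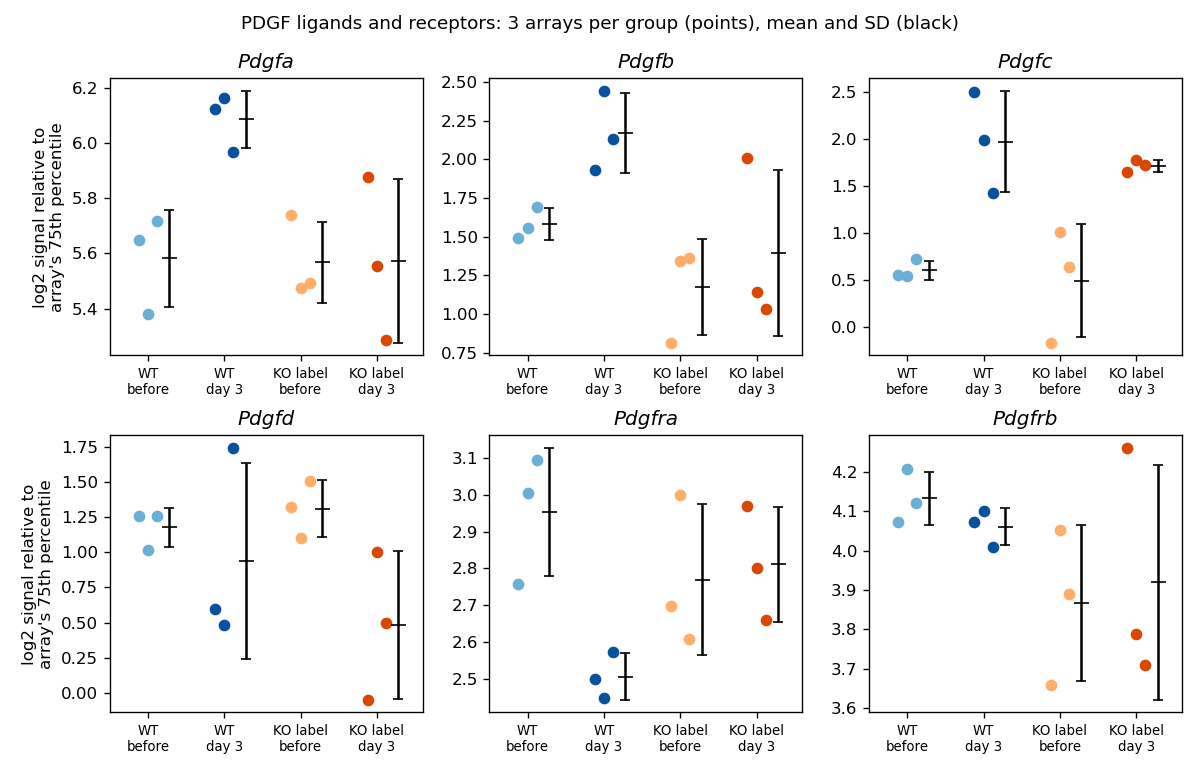
Levels of the 6 PDGF genes on each array (points, 3 per group) with the group mean and SD (black), as log2 signal relative to the array's 75th percentile. Each panel has its own axis. Pdgfc is higher at day 3 than before challenge under both genotype labels, while Pdgfrb lies between 3.66 and 4.26 on all arrays.

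Pdgfc, the ligand of the α receptor that is secreted in latent form, was the member with the largest difference after challenge. Its level before challenge was 0.55, 0.54 and 0.72 on the WT arrays and rose to 2.50, 1.99 and 1.42 at day 3. All day 3 arrays were above all arrays before challenge. The difference was 1.37 ± 0.31 (SE, n = 3 per group), a 2.58-fold rise with an adjusted p of 0.0391. On the smSocs3-KO arrays the level was -0.17, 1.01 and 0.64 before challenge and 1.65, 1.77 and 1.72 at day 3. These groups did not overlap either, with a difference of 1.22 ± 0.31 that missed the threshold (adjusted p = 0.0635). The responses of the genotypes differed by -0.15 (95% interval -1.12 to 0.82, adjusted p = 0.997). In order of mean level the groups were WT at day 3 (1.97 ± 0.54, SD), smSocs3-KO at day 3 (1.71 ± 0.06), WT before challenge (0.60 ± 0.10) and smSocs3-KO before challenge (0.49 ± 0.60). The day 3 groups overlapped, as did the groups before challenge.

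The call of Pdgfc in WT aortas rested on small margins. The difference was positive under all 23 alternatives and passed the threshold under 9. Without WT replicate 1, 2 or 3 before challenge it was 1.34 (adjusted p = 0.158), 1.34 (0.142) and 1.43 (0.0779). Without WT day 3 replicate 1 or 3 it was 1.1 (adjusted p = 0.172) and 1.36 (0.104). The difference stayed 1.37 without smSocs3-KO replicate 4 before challenge or smSocs3-KO day 3 replicate 2 or 3, with adjusted p of 0.0606, 0.0539 and 0.0533. Without WT day 3 replicate 4 the WT difference was 1.64 (adjusted p = 0.00762) and the smSocs3-KO difference of 1.22 was called (adjusted p = 0.0255). With slide as a block, which amounts to omitting smSocs3-KO replicate 1 before challenge, the smSocs3-KO difference was 0.89 (adjusted p = 0.175). The genotype difference of Pdgfc before challenge was then -0.77, from smSocs3-KO replicate 1 alone, beside -0.11 without the block.

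Upstream sequence was looked at for the members with an entry in the RefSeq promoter table (GRCm38.p6), which held 5 starts of 4 members (Pdgfa, Pdgfc, Pdgfd and Pdgfra). The 250 bases before each start were searched on both strands for the GC box GGGCGG, the AP-1 site TGANTCA and the CArG box, the site of serum response factor in many smooth muscle and early response genes. The motifs were chosen after the sequences had been seen. The Pdgfc window held 1 CArG box, which began 17 bases before the start, a motif found in 1.47% of the 32851 windows in the table. It held neither a GC box nor an AP-1 site, which 32.7% and 6.75% of all windows held. No other start of these members had a CArG box or an AP-1 site, GC boxes were found at the Pdgfa starts alone (1 and 2), and the Pdgfd and Pdgfra windows held none of the motifs. A match describes the letters in this window and is no evidence of binding. The Pdgfc window and the Pdgfa window with 2 GC boxes are printed as those of the called member and of the only member with GC boxes, with the matches in capitals (GC boxes read on the other strand).
Pdgfc, chr3:81036166-81036415, plus strand: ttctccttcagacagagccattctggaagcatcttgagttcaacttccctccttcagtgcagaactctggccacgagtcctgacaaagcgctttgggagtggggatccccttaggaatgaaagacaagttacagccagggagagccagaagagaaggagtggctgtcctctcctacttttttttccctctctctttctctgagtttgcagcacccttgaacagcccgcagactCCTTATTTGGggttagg
Pdgfa, chr5:138994945-138995194, minus strand: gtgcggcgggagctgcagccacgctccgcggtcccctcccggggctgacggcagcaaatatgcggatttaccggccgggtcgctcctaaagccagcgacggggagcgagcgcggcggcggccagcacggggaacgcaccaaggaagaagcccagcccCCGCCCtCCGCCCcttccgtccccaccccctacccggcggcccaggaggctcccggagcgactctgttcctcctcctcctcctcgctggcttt

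Pdgfa, whose homodimer binds the α receptor alone, was higher on all WT arrays at day 3 (6.12, 6.16 and 5.97) than before challenge (5.65, 5.38 and 5.72). The difference of 0.50 ± 0.18 (SE), or 1.42-fold, did not pass the threshold (adjusted p = 0.113). On the smSocs3-KO arrays the level was 5.74, 5.47 and 5.49 before challenge and 5.88, 5.56 and 5.29 at day 3, and these groups overlapped with a difference of 0.00 (95% interval -0.39 to 0.40). At day 3 the smSocs3-KO arrays all lay below the WT arrays, by -0.51 ± 0.18 (adjusted p = 0.210). The interaction was -0.50 (95% interval -1.06 to 0.07, adjusted p = 0.957). The highest group mean was that of WT at day 3 (6.08 ± 0.10, SD), while the other 3 group means lay between 5.57 and 5.58 and their arrays overlapped. The second, overlapping probe gave a WT difference of 0.42 ± 0.20 and a day 3 genotype difference of -0.46 ± 0.20. The WT difference depended on scaling: it was 0.17 after quantile normalization (adjusted p = 0.555) and 0.10 with normexp background correction added (adjusted p = 0.739).

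Pdgfb, the endothelial and platelet ligand that binds both receptors, was measured by its bright probe. The level on WT arrays was 1.49, 1.55 and 1.69 before challenge and 1.93, 2.44 and 2.13 at day 3. The day 3 arrays were all higher, by 0.59 ± 0.27 (adjusted p = 0.187). On the smSocs3-KO arrays it was 0.81, 1.34 and 1.36 before challenge and 2.01, 1.14 and 1.03 at day 3, with replicate 2 apart from the other two and overlap between the groups (difference 0.22 ± 0.27, adjusted p = 0.621). Before challenge the smSocs3-KO arrays all lay below the WT arrays, by -0.41 (95% interval -0.99 to 0.18). With slide as a block that difference was -0.77, from smSocs3-KO replicate 1 alone. At day 3 the difference between genotypes was -0.77 ± 0.27 (adjusted p = 0.199), and the groups overlapped through smSocs3-KO replicate 2. Of the 4 group means, WT at day 3 was highest (2.17 ± 0.26, SD), followed by WT before challenge (1.58 ± 0.10), smSocs3-KO at day 3 (1.39 ± 0.54) and smSocs3-KO before challenge (1.17 ± 0.31). Neighbours in this order overlapped except for the WT groups. The dim probe was well above background on 6 of 12 arrays, on all arrays of no group, and was not tested.

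Pdgfd, the latent ligand of the β receptor, had its lowest levels at day 3. On the smSocs3-KO arrays it was 1.32, 1.1 and 1.51 before challenge and -0.05, 1.0 and 0.50 at day 3. All day 3 arrays were lower, by -0.83 ± 0.34 (SE), or 0.563-fold, which did not pass the threshold (adjusted p = 0.176). On the WT arrays it was 1.26, 1.01 and 1.26 before challenge and 0.60, 0.48 and 1.74 at day 3. Replicate 4 at day 3 was the highest of all 12 arrays while the other day 3 arrays lay below every WT array before challenge. The WT difference was -0.24 ± 0.34 with replicate 4 and -0.64 (adjusted p = 0.145) without it. The genotypes differed by 0.13 (95% interval -0.62 to 0.88) before challenge and by -0.46 (95% interval -1.21 to 0.29) at day 3, the latter changing to -0.06 without WT replicate 4. The group means were 1.31 ± 0.20 (SD) for smSocs3-KO before challenge, 1.18 ± 0.14 for WT before challenge, 0.94 ± 0.70 for WT at day 3 and 0.48 ± 0.52 for smSocs3-KO at day 3, each overlapping its neighbour.

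Pdgfra, the receptor of the A, B and C chains, was measured by 10 spots per array, whose SD within an array was 0.03 to 0.10 on the log2 scale. On the WT arrays the level was 2.76, 3.01 and 3.09 before challenge and 2.50, 2.45 and 2.57 at day 3. All day 3 arrays were lower, by -0.45 ± 0.16 (SE), or 0.734-fold, with an adjusted p of 0.116. On the smSocs3-KO arrays the level was 2.70, 3.00 and 2.61 before challenge and 2.97, 2.80 and 2.66 at day 3, with overlap and a difference of 0.04 (95% interval -0.32 to 0.40). The interaction of 0.49 had an interval from -0.02 to 1.0 and an adjusted p of 0.935. At day 3 the smSocs3-KO arrays were all above the WT arrays, by 0.30 ± 0.16 (adjusted p = 0.386). With normexp background correction and quantile normalization together the WT difference was called at -0.60 (adjusted p = 0.0363). The WT group at day 3 had the lowest mean (2.51 ± 0.06, SD), and the means of the other 3 groups, 2.77 to 2.95, belonged to overlapping groups.

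Pdgfrb, the receptor of the B and D chains, was measured at chr18:61244606-61244665 (mm9, plus strand). Its level on WT arrays was 4.07, 4.21 and 4.12 before challenge and 4.07, 4.10 and 4.01 at day 3. On smSocs3-KO arrays it was 3.66, 4.05 and 3.89 before challenge and 4.26, 3.79 and 3.71 at day 3. The response was -0.07 (95% interval -0.46 to 0.31, adjusted p = 0.820) in WT and 0.05 (95% interval -0.33 to 0.44, adjusted p = 0.871) in smSocs3-KO aortas, so a change beyond about 0.5 log2 units lay outside both intervals. Before challenge the smSocs3-KO arrays all lay below the WT arrays, by -0.27 ± 0.18, narrowly so for replicate 3 (4.05 against a lowest WT value of 4.07). With slide as a block the difference was -0.47, from smSocs3-KO replicate 1 alone. At day 3 the genotypes differed by -0.14 (95% interval -0.53 to 0.24). In order of mean level the groups were WT before challenge (4.13 ± 0.07, SD), WT at day 3 (4.06 ± 0.05), smSocs3-KO at day 3 (3.92 ± 0.30) and smSocs3-KO before challenge (3.87 ± 0.20), and each overlapped the next.

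**Figure D2:**
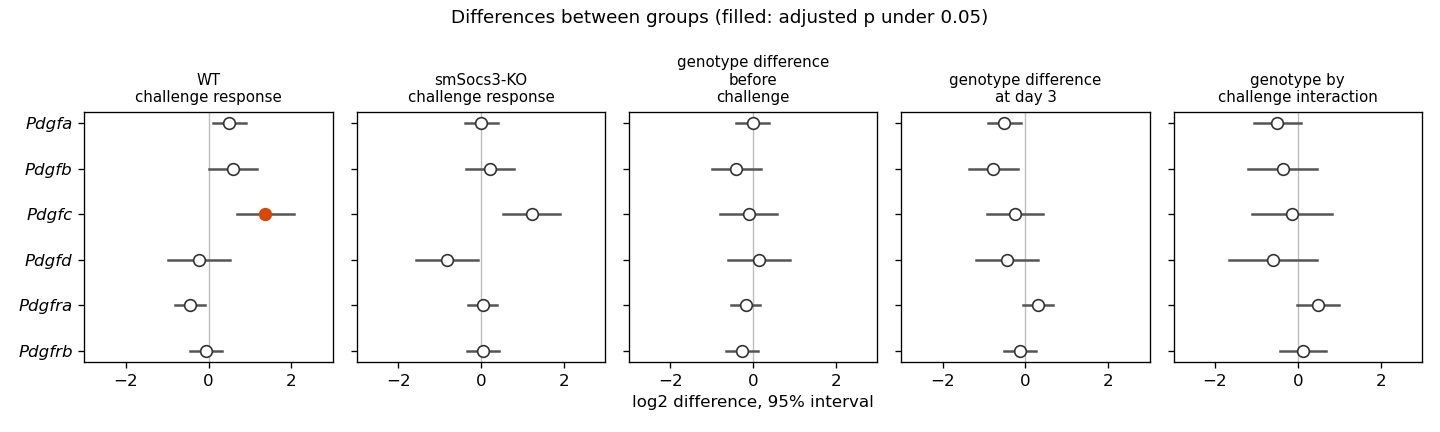
Difference between groups for each PDGF gene in the 5 comparisons, on the log2 scale, with its 95% interval from the limma fit (bars). Pdgfc in the WT challenge response, at 1.37, is the point past an adjusted p of 0.05 (filled).

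The genes that act with PDGF were followed by a list of 57 tested pathway genes. In the WT response 1 of them was called and rose, beside 4.68% of all genes. At an unadjusted p under 0.05, 14 were higher and 3 lower (26.6% of all genes passed in either direction), and the median difference of the list was 0.13 (all genes, -0.02). In the smSocs3-KO response none was called by limma, beside 2.45% of all genes, 12 were higher and 3 lower at an unadjusted p under 0.05 (23.8% of all genes), and the median was 0.17 (all genes, -0.06). Without WT day 3 replicate 4, 9 pathway genes were called in the WT response and 3 in the smSocs3-KO response, beside 15.9% and 8.43% of all genes. Leaving out each of the 12 arrays in turn gave 0 to 9 and 0 to 3 called, with 5 in the WT response without smSocs3-KO replicate 1 before challenge. Between genotypes none was called before challenge, at day 3 or in the interaction. At an unadjusted p under 0.05 these comparisons held 1, 8 and 3 pathway genes, beside 4.4%, 16.2% and 5.33% of all genes.

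The proteases that process PDGF ligands held the called gene. Plau, the urokinase plasminogen activator, was at -3.89, -3.93 and -3.55 on WT arrays before challenge and at -1.93, -1.27 and -2.40 at day 3. It rose 3.79-fold (difference 1.92 ± 0.48, adjusted p = 0.0475) with no overlap. On smSocs3-KO arrays it was -4.85, -2.91 and -3.73 before challenge and -2.18, -3.24 and -3.36 at day 3 (difference 0.90 ± 0.48, adjusted p = 0.270), and the interaction was -1.02 (95% interval -2.51 to 0.47). The WT rise of Plau was called under 6 of the 22 alternatives in which it was measured and ranged from 0.72 to 2.20, so this call too was marginal. Without WT day 3 replicate 4 it was 2.19 ± 0.52 (adjusted p = 0.0216). Plat, the tissue plasminogen activator that releases active PDGF-CC, was the protease with the largest difference in the smSocs3-KO response, 0.97 ± 0.33 (adjusted p = 0.125), with 0.64 ± 0.33 in WT (adjusted p = 0.249). Of the other 2 proteases tested, Furin and St14, neither was called.

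No gene of the other pathway roles was called in any comparison. Among ligand binders and co-receptors (5 tested), Pdgfrl, a receptor-like gene, had the largest WT difference, 0.82 ± 0.29 (adjusted p = 0.113), and Nrp1, the neuropilin co-receptor, the largest smSocs3-KO difference, 0.49 ± 0.24 (adjusted p = 0.234). Among receptor phosphatases and ubiquitin ligases (6 tested), Ptpn2, a tyrosine phosphatase, had 0.45 ± 0.27 in WT and 0.72 ± 0.27 in smSocs3-KO aortas (adjusted p = 0.315 and 0.153). Among the 18 receptor-proximal transducers, the kinase gene Src had the largest differences, -0.73 ± 0.75 in WT and -0.97 ± 0.75 in smSocs3-KO aortas (adjusted p = 0.557 and 0.445). Of all 22761 genes tested, 11011 had positive differences in the WT response and 10149 in the smSocs3-KO response. Of the 14 genes of the Ras-MAPK cascade, 11 had positive differences in each response. Spry2, a feedback inhibitor, had the largest with negative sign, -1.87 ± 0.71 in WT and -1.44 ± 0.71 in smSocs3-KO aortas (adjusted p = 0.128 and 0.240). Of the 10 early response genes of growth factors, 7 had positive differences in each response. Egr2, a zinc finger transcription factor, led in WT (1.98 ± 0.69, adjusted p = 0.106), and Ier3 in smSocs3-KO aortas (2.21 ± 0.56, adjusted p = 0.0638). Without WT day 3 replicate 4, where Egr2 was at -1.06, the Egr2 difference in WT was 2.91 ± 0.47 and was called (adjusted p = 0.00408). In that fit 15.9% of all genes were called.

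The relatives of PDGF, the vascular endothelial growth factor (VEGF) genes with their receptors and the other class III receptor tyrosine kinases with their ligands, numbered 15 tested genes. Pgf, placental growth factor, was called in both responses. Its level was -2.16, -1.75 and -1.74 on WT arrays before challenge and -0.56, -0.23 and -1.13 at day 3, a 2.37-fold rise (1.24 ± 0.27, adjusted p = 0.0363). On smSocs3-KO arrays it went from -2.13, -2.0 and -1.82 to -0.84, -0.98 and -0.18, a 2.48-fold rise (1.31 ± 0.27, adjusted p = 0.0384). These calls held under 12 and 10 of 23 alternatives.

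Kit, the stem cell factor receptor and a class III relative of the PDGF receptors, rose in smSocs3-KO aortas from -3.62, -2.57 and -3.41 to -1.35, -2.25 and -1.69 (1.44 ± 0.31, adjusted p = 0.0414). On WT arrays the Kit difference was 0.07 ± 0.31, and the interaction of 1.37 (95% interval 0.40 to 2.34) had an adjusted p of 0.833. The Kit call held under 5 of the 22 alternatives in which it was measured. Kit dropped out where probes had to be well above background on all 12 arrays. The largest differences of the remaining roles were not called. For VEGF receptors these were Kdr in WT (0.29 ± 0.30) and Flt1 in smSocs3-KO aortas (0.57 ± 0.15, adjusted p = 0.0698). For class III ligands they were Flt3l in WT (-0.90 ± 0.34, adjusted p = 0.127) and Il34 in smSocs3-KO aortas (0.93 ± 0.50, adjusted p = 0.282). The receptor gene Csf1r, which macrophages carry, had 0.61 ± 0.24 in WT, the largest there among class III receptors (adjusted p = 0.134), and 0.92 ± 0.24 in smSocs3-KO aortas (adjusted p = 0.0652).

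**Figure D3:**
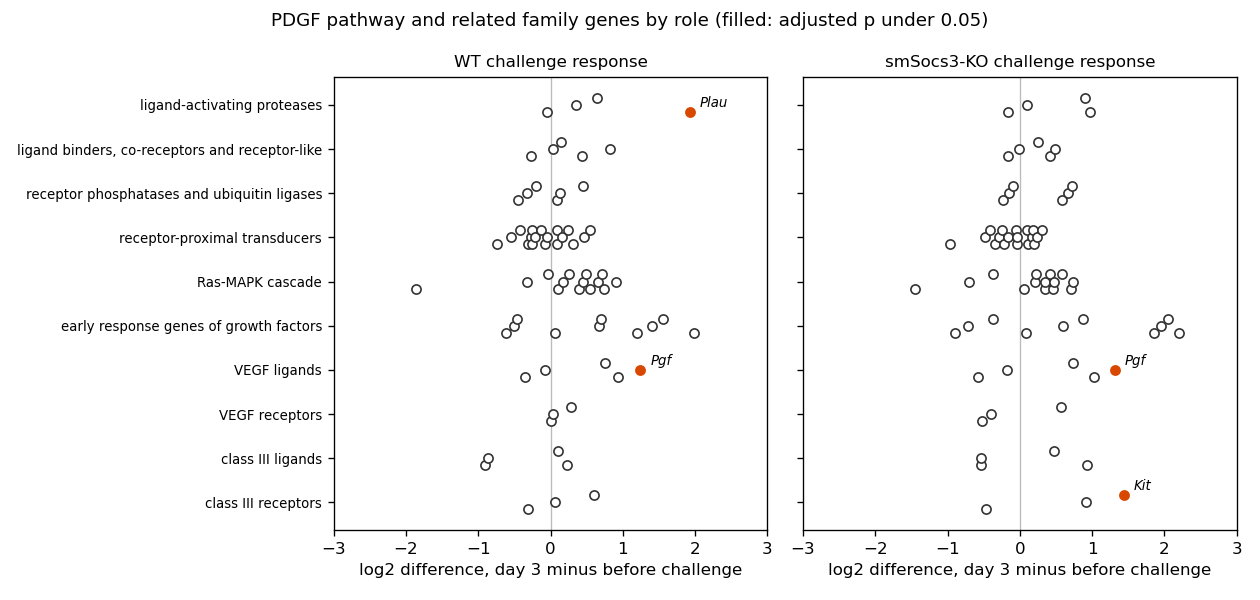
Challenge response of each tested PDGF pathway gene and relative, by role, as the log2 difference between day 3 and before challenge in WT (left) and smSocs3-KO aortas (right). Filled points passed an adjusted p of 0.05 and are named: Plau and Pgf in WT, Pgf and Kit in smSocs3-KO aortas.

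Since the arrays read whole aortic tissue, fewer cells of a type and less RNA per cell cannot be told apart. Some marker lists of the cells that carry or make PDGFs moved with the challenge, while others, such as the pericyte list, overlapped before and after it. The mean log2 level of the 7 smooth muscle markers, relative to WT before challenge, was -0.03 to 0.05 on WT arrays before challenge and -0.74, -0.69 and 0.01 at day 3, and on smSocs3-KO arrays it was -0.20 to 0.24 and -0.93 to -0.51. The 7 macrophage markers gave -0.05 to 0.45 on all arrays before challenge. At day 3 they gave 0.02 to 1.58 on WT and 1.66 to 2.04 on smSocs3-KO arrays. By limma, 0 of 7 were called in the WT response (4.68% of all genes) and 4 of 7 in the smSocs3-KO response (2.45%). At an unadjusted p under 0.05 the limma fit had 5 in the WT response (26.6% of all genes) and 6 in the smSocs3-KO response (23.8%). None was called in the interaction. WT day 3 replicate 4 had the lowest macrophage value (0.02), the highest smooth muscle value (0.01) and the lowest Pdgfc level (1.42) of its group. The 8 fibroblast markers gave 0.04 to 0.37 on WT and 0.77 to 1.13 on smSocs3-KO arrays at day 3, where Pdgfra was also lower on WT than on smSocs3-KO arrays. Before challenge they gave -0.08 to 0.07 on WT and 0.05 to 0.22 on smSocs3-KO arrays. By limma, 0 of 8 fibroblast markers were called in the WT response (4.68% of all genes) and 2 in the smSocs3-KO response (2.45%). Between genotypes at day 3, 2 were called (1.11%). Pdgfra did not follow them in the challenge responses, with differences of -0.45 in WT and 0.04 in smSocs3-KO aortas. The 7 pericyte markers ranged from -0.47 to 0.21 on all arrays, with median differences of -0.03 in the WT and -0.12 in the smSocs3-KO response. No smooth muscle, pericyte, endothelial or platelet marker was called by limma in either response (4.68% and 2.45% of all genes).

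The 7 endothelial markers gave 0.15 to 0.39 at day 3. Their lowest value of all arrays, -0.74, was on smSocs3-KO replicate 1 before challenge. That array also had the lowest Pdgfb, Pdgfc and Pdgfrb levels. The 7 platelet and megakaryocyte markers gave -0.07 to 1.63 at day 3 and -0.81 to 1.09 before challenge. The 6 neutrophil markers gave 0.37 to 2.59 at day 3 and -0.45 to 0.71 before challenge. Their median difference was 0.21 in WT and 1.48 in smSocs3-KO aortas, with 5 positive and 1 called in each (4.68% and 2.45% of all genes). The WT markers were uneven. Mpo went from -5.35, -5.83 and -6.67 to -2.99, -2.96 and -3.84, and S100a8 from -2.45, -3.94 and -2.41 to -4.04, -3.69 and -0.71. Of lists for tissue around the aorta, the 5 mesothelial markers ranged from -2.15 to 0.93 on WT and from 1.30 to 2.70 on smSocs3-KO arrays, the 5 adipocyte markers from -1.59 to 1.64 on all arrays, and the 4 red blood cell markers from -1.28 to 2.33. The part of these cells in the PDGF differences was not tested.

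**Figure D4:**
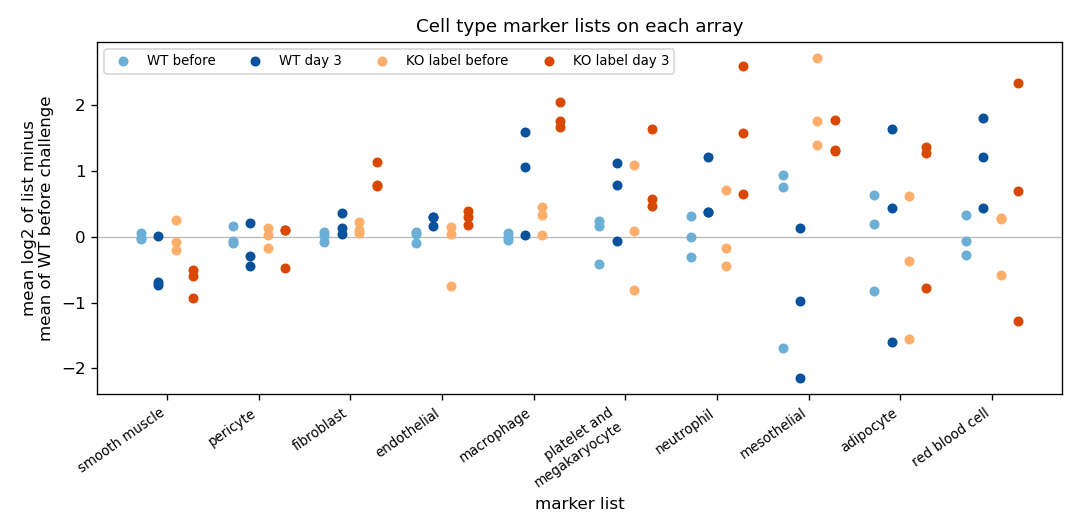
Mean log2 level of each cell type marker list on each array, minus the mean of the 3 WT arrays before challenge. Points are arrays, coloured by group. Smooth muscle markers lie lower and macrophage markers higher at day 3 except on 1 WT array, and mesothelial markers lie higher on the arrays labelled smSocs3-KO.

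The genes whose pattern over the 12 arrays was most like each member were ranked by Pearson's r, given as a description, since the arrays share the 4 groups and their depth. Pdgfc followed Gmnn, encoding the replication licensing inhibitor geminin, most closely (r = 0.988, and 0.983 after the group means were subtracted), then 2610039C10Rik (0.983) and Vkorc1l1 (0.980). Gmnn itself rose from -3.16, -3.13 and -3.02 to 0.14, -0.33 and -1.63 on the WT arrays (adjusted p = 0.0334), with the same order of the 3 day 3 arrays as Pdgfc, and the difference without WT day 3 replicate 4 was 3.01 (adjusted p = 0.00374). On the smSocs3-KO arrays Gmnn was -4.07, -1.95 and -2.70 before challenge and -0.81, -0.77 and -0.84 at day 3 (adjusted p = 0.0582). Pdgfa was most like Vangl1, a planar cell polarity gene (0.947), Drp2 (0.947) and Serpinh1, the collagen chaperone (0.938).

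Pdgfb was most like Scn4a (0.946), Vwf, the endothelial and platelet von Willebrand factor (0.931), and Gm13178 (0.908). Among the members themselves the highest r was that of Pdgfa and Pdgfb (0.760, and 0.446 after the group means were subtracted), followed by Pdgfb and Pdgfrb (0.742, and 0.886). Pdgfd was most like Vprbp (0.952), Cadm1, a cell adhesion gene (0.946), and Zbtb44 (0.939). The receptors had less similar neighbours: Pdgfra was most like Tmie (0.820), the metalloproteinase gene Mmp27 (0.819) and Adi1 (0.814), and Pdgfrb most like Gm13372 (0.845), Ppp1r35 (0.836) and Lmo2 (0.813).

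**Figure D5:**
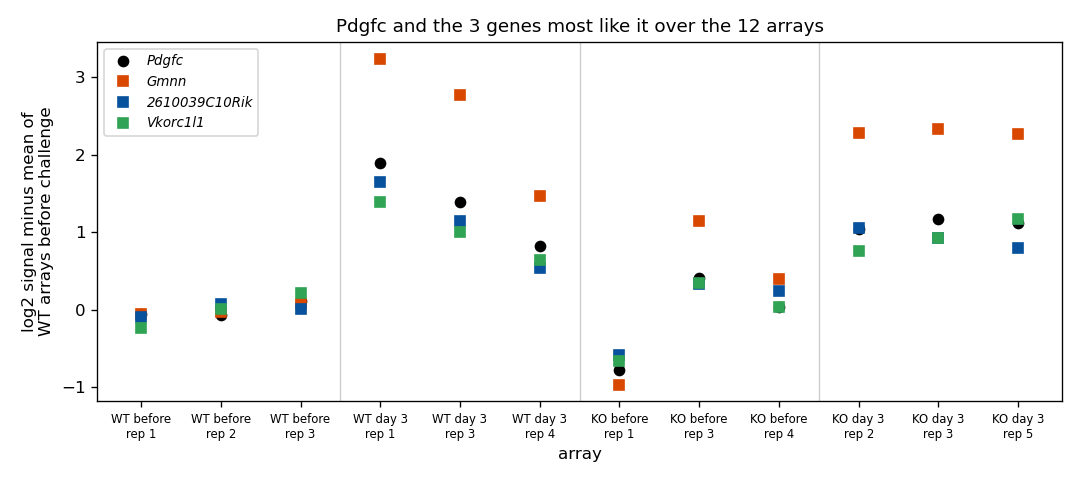
Levels of Pdgfc and of the 3 genes with the highest Pearson's r with it, on each of the 12 arrays, as log2 signal minus the mean of the 3 WT arrays before challenge. All 4 genes are higher on the day 3 arrays than on the arrays before challenge under the same genotype label, and smSocs3-KO replicate 1 before challenge is lowest for all 4.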

How the data were processed

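Gene expression in mouse aorta was measured on 12 Agilent arrays, grouped by the sample labels. The authors deposited the scanner output, whose processed signal (an intensity for each spot) had been background subtracted and spatially detrended by Feature Extraction (version 10.7.1.1 per the file headers, 9.5.1.1 in the submitters' processing notes), and a table of normalized intensity values, used here as an alternative. Other columns mark spots that are outliers or exceed background by 13 of its SDs (well above background).

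Control and outlier spots were removed, log2 of the processed signal was averaged per probe, and the array's 75th percentile was subtracted. Probes that were well above background throughout at least 1 group were kept (32283 of 55681 probes), and the brightest kept probe stood for a gene. The 4 group means were fitted with limma 3.58.1 in R 4.3.3, with p-values adjusted over 22761 genes. The fit was tested on simulated data. Intensities carry no counts, so the number of arrays limits precision. Members and gene lists were chosen with earlier results of these data known. Named were all members and, of the lists, each gene called and the gene with the largest difference per role and response; for likeness, the 3 highest correlations. A2m, Sos1 and Egr3 had no kept probe, and Hras, Vegfd and Adgre1 were measured under the older names Hras1, Figf and Emr1. Alternatives covered background correction, normalization, filter, choice of probe, variances, arrays in the fit, slide, replicate number and omission of each array.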

Additional observations from a re-analysis of the deposited data

How the results depend on the processing

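Of 684 differences of members recomputed under 23 alternatives, 648 kept their sign, and 17 of 30 results never reversed. Members called in the WT response numbered 2 with normexp and quantile normalization and 0 with quantile normalization, the authors' table, no filter, unmoderated variances or only the 2 groups compared, and 0 to 1 with an array left out. In the smSocs3-KO response 1 member was called with normexp and 0 to 1 with an array left out. Pathway genes called in the WT response numbered 0 with normexp, no filter or only the 2 groups compared, 3 with normexp and quantile normalization, 5 with slide as a block and 0 to 9 with an array left out. In the smSocs3-KO response they numbered 2 with normexp, 1 with normexp and quantile normalization, 1 with the mean of kept probes and 0 to 3 with an array left out, and at day 3 between genotypes 0 to 1 with an array left out. Leaving out WT day 3 replicate 4 gave the 9 and 3 pathway genes of the challenge responses. Without that array 15.9% and 8.43% of all genes were called, beside 4.68% and 2.45% with all arrays. The share of all genes called thus moves with the setting and is not given for the other alternatives. These counts therefore describe the settings and are not results about the PDGF genes.

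In the smSocs3-KO response under quantile normalization, normexp with quantile normalization and the authors' table, Pdgfa was -0.0878, -0.0585 and -0.0878, Pdgfra -0.0726, -0.0671 and -0.0724, and Pdgfrb -0.0721, -0.0700 and -0.0713. With slide as a block, Pdgfrb in that response was -0.0529 and Pdgfa before challenge 0.16, the latter from smSocs3-KO replicate 1 alone. With an array left out, the smSocs3-KO responses ranged from -0.15 to 0.15 (Pdgfa), -0.0872 to 0.40 (Pdgfb), from -0.0385 to 0.16 (Pdgfra) and from -0.12 to 0.16 (Pdgfrb), the genotype differences before challenge from -0.11 to 0.0535 (Pdgfa) and from -0.37 to 0.22 (Pdgfc), the day 3 difference of Pdgfc from -0.53 to 0.0083, and the interactions from -0.48 to 0.12 (Pdgfc) and from -0.047 to 0.23 (Pdgfrb).

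Replicate numbers are shared between groups, but not every same-numbered pair of arrays deviated together. The r was 0.46 and 0.33 for WT and smSocs3-KO replicates 1 and 3 before challenge and -0.30 to 0.08 for the other 4 pairs. Pairs with different numbers were not set beside them, so whether a shared number reflects shared handling was not tested. The main fit leaves replicate number out. With a replicate block, 0 members and 0 pathway genes were called in the WT response and no gene of the array, Pdgfc was 1.45 (adjusted p = 0.113), and signs reversed for Pdgfrb in both responses (0.0321 and -0.0247) and the interaction (-0.0568), Pdgfra in the smSocs3-KO response (-0.0292), Pdgfa before challenge (0.0154), and Pdgfd before challenge (-0.32), at day 3 (0.0924) and in the interaction (0.41). The cause of these changes was not tested. The 3 arrays per group and probes near background, such as those of Plau and Kit, limit the precision.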
